A study of Arabidopsis thaliana with 4 samples.

Results

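Cells in an immune-like defence state were followed in single-cell transcriptomes of Arabidopsis thaliana roots. They were chosen by their transcripts: a cell barcode belonged to the state when at least 2 of FMO1 (AT1G19250), PBS3 (AT5G13320), WRKY46 (AT2G46400) and PUB54 (AT1G01680) had a unique molecular identifier (UMI, 1 counted transcript molecule) and the 4 genes together reached 200 UMIs per 1000000 UMIs (CPM). A barcode was considered from 2000 UMIs upwards, unless organelle transcripts (mitochondria and plastids) exceeded 10% of its UMIs. Of 41823 barcodes, 24258 passed these limits, and 1006 of them were in the defence state. The other kept barcodes of the same library were the comparison.

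The 4 libraries came from 4 reporter lines, with 1 library and 1 batch per line and no replicates, and effects of line and of batch cannot be told apart. In pWER:GFP, in pSCR:GFP and in pCORTEX:GFP a promoter named in the line drives GFP, and PET111 is an enhancer trap whose table holds a YFP row. All lines were treated alike: plants grew at 22 °C in continuous light, seedling root tips were harvested at 4 to 5 days after germination, cell walls were digested for 1 h at 25 °C, and the freed protoplasts went into droplets that tag the 3′ ends of transcripts. The labels name no elicitor or pathogen for any line. No library from undigested roots was among the samples used here, so an effect of wall digestion on the state and its level in the intact root cannot be told apart. Runs of 4 values give pWER:GFP first, then pCORTEX:GFP, then PET111, with pSCR:GFP last.

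Plant cells that sense microbial molecules or damage fragments at the surface open a calcium and kinase cascade and switch on response genes. A later layer makes salicylic acid and N-hydroxypipecolic acid (NHP), both of which spread resistance. PBS3 joins glutamate to isochorismate on the way to salicylic acid, and FMO1 hydroxylates pipecolic acid to NHP. WRKY46 is a transcription factor of defence genes, and PUB54 has the U-box of an E3 ubiquitin ligase. In roots the same immune signals also induce camalexin, an indole phytoalexin.

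Defence-state cells made up 419 of 6360 kept barcodes in pWER:GFP, a share of 6.59% (exact Clopper-Pearson 95% interval 5.99% to 7.23%). The share was 3.36% (2.97% to 3.79%) in pCORTEX:GFP, from 254 of 7552. It was 5.49% (4.76% to 6.29%) in PET111, from 193 of 3516, and 2.05% (1.73% to 2.41%) in pSCR:GFP, from 140 of 6830. All intervals cover counting error only. Deeper barcodes reach the rule more easily, so every barcode was also thinned to 2000 UMIs. The shares were then 2.69%, 2.48%, 4.01% and 0.937%, which placed PET111 above pWER:GFP. Of the defence-state cells, 40.1%, 73.6%, 73.1% and 45.7% were found again at that depth.

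**Figure D1:**
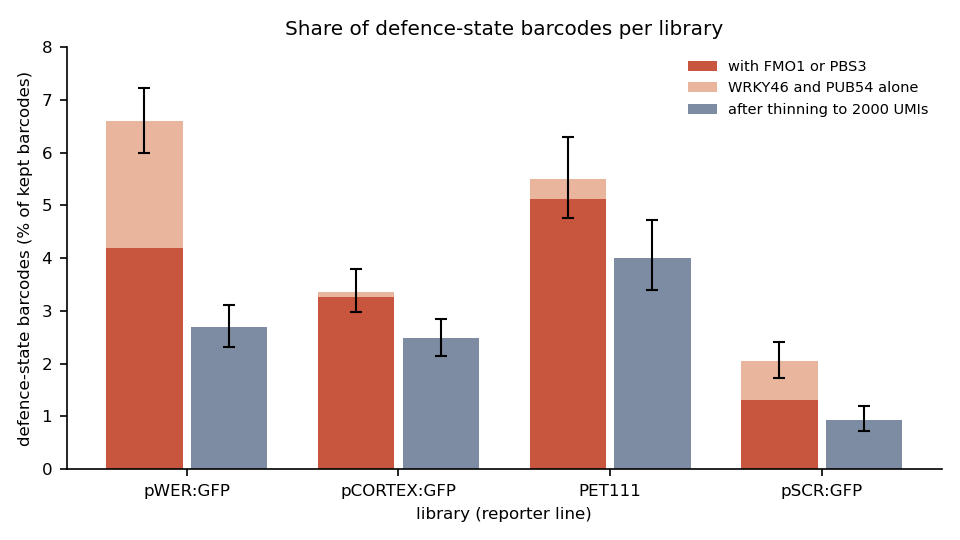
Share of defence-state barcodes among kept barcodes (%, y axis) in each library, as deposited (left bars, split by the rule genes they carry) and after thinning every barcode to 2000 UMIs (right bars), with exact 95% intervals. After thinning the highest share is 4.01%, in PET111, and the lowest 0.937%, in pSCR:GFP, and barcodes with WRKY46 and PUB54 alone are common in pWER:GFP and pSCR:GFP.

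The state was not of 1 kind, and the libraries fell into pairs. FMO1 or PBS3 was present in 96.9% of defence-state cells of pCORTEX:GFP and 93.3% of those of PET111, but in 63.7% of those of pWER:GFP and 63.6% of those of pSCR:GFP. The rest carried WRKY46 and PUB54 alone, 152, 8, 13 and 51 cells. All 4 genes were present in 108, 105, 73 and 46 cells. The WRKY46 and PUB54 cells of pWER:GFP and pSCR:GFP were very deep, with medians of 80241.5 and 76690 UMIs, against 16012 and 16547 for the defence-state cells with FMO1 or PBS3 in these libraries. In pCORTEX:GFP and PET111 they had 11028 and 9543 UMIs.

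Depth differed in opposite directions between these pairs of libraries. Defence-state cells had a median of 18118 UMIs in pWER:GFP and 18624.5 in pSCR:GFP, against 9927 and 9286.5 in the other cells. In pCORTEX:GFP and PET111 they had 9849.5 and 9057 UMIs, against 14814.5 and 16422 in the other cells. The median share of organelle UMIs was 1.10%, 2.18%, 3.91% and 1.07% in defence-state cells, against 2.23%, 1.72%, 2.46% and 2.63% in the other cells. No doublets were removed, and the part of doublets in the deepest cells was not tested. Libraries shared between 5 and 16 kept barcode sequences per pair, and 1 defence-state barcode sequence occurred in both pWER:GFP and pSCR:GFP.

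**Figure D2:**
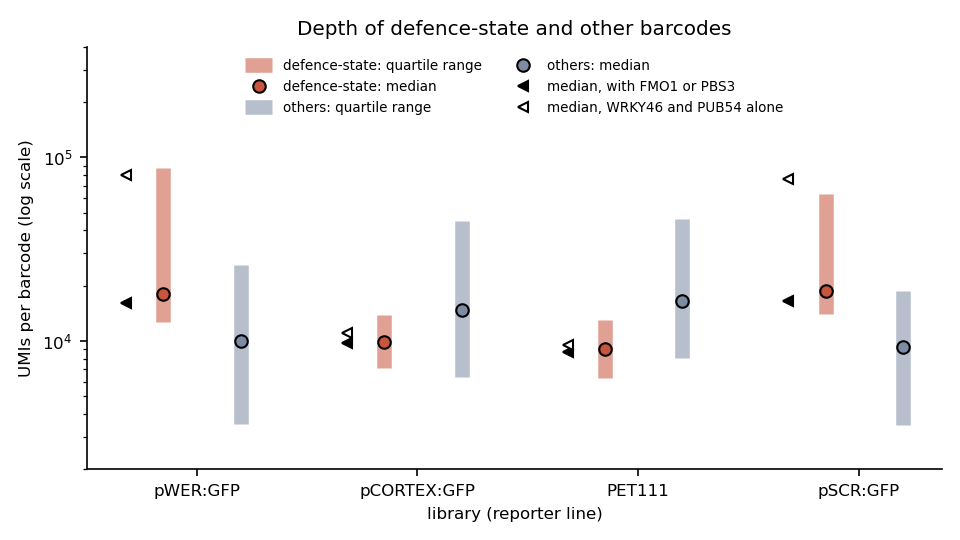
UMIs per barcode (y axis, log scale) of defence-state and other kept barcodes in each library, as medians (circles) and ranges from the 25th to the 75th percentile (bars); triangles give the medians of defence-state barcodes with FMO1 or PBS3 (filled) and with WRKY46 and PUB54 alone (open). The open triangles of pWER:GFP and pSCR:GFP lie at 80241.5 and 76690 UMIs, far above the circles of the same library.

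The rule genes themselves chose the cells, and their levels are given as a description. Levels are UMIs summed over the cells of a group, in CPM, and a log2 ratio is that of defence-state over other cells of 1 library after adding 5 CPM to both. Deep cells weigh more in such sums. In pWER:GFP and pSCR:GFP the deep cells with WRKY46 and PUB54 alone thus weigh beyond their number in every defence-state level. FMO1 stood at 158, 821, 676 and 232 CPM in defence-state cells, against 0.918, 0.519, 0.641 and 0.673 CPM in the other cells. PBS3 stood at 41.8, 799, 902 and 48.7 CPM in defence-state cells and at 0.131, 0.617, 0.714 and 0.132 CPM in the others. For PUB54 the levels were 128, 1121, 876 and 159 CPM against 1.57, 0.282, 0.347 and 1.14 CPM. The state held between 87.2% and 97.9% of the kept UMIs of these 3 genes in each library, a share that the rule itself raises. For WRKY46 that share was lower, and it reached 552, 895, 949 and 552 CPM in defence-state cells, against 119, 3.23, 5.45 and 92.3 CPM in the others. A UMI of FMO1 was seen in 55.6%, 63.0%, 56.5% and 56.4% of defence-state cells, against 1.41%, 1.01%, 1.05% and 0.717% of the others. In the other cells of pWER:GFP and pSCR:GFP a WRKY46 UMI was seen in 40.1% and 29.2%, and in other cells with root hair markers of these libraries in 45.1% and 32.6%, at median depths of 43548 and 20111 UMIs. In pCORTEX:GFP and PET111 3.48% and 5.27% of the other cells had a WRKY46 UMI without thinning.

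The 4 genes went together in the cells, a description and no test, since the members were chosen with earlier results of these data known. When each was left out in turn and cells were chosen by the other 3, the gene left out was still higher in every library. Its log2 ratio was 4.39, 7.26, 6.89 and 5.18 for FMO1 and 3.04, 7.002, 6.88 and 3.35 for PBS3. It was 2.49, 6.63, 6.36 and 3.31 for WRKY46, and 4.87, 7.72, 7.21 and 5.91 for PUB54. At the 200 CPM limit there was a gap in PET111 and a gradual passage in the other libraries. The lowest cells inside stood at 205, 229, 228 and 209 CPM of rule gene UMIs, and the highest cells outside with 2 rule genes at 196, 196, 96.2 and 180.4. Cells inside but under 400 CPM were 19.8%, 4.33%, 4.15% and 22.1% of the state.

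Beyond the rule genes, the state was read over the 17152 genes with at least 100 UMIs over all kept barcodes in every library. Since transcripts of the same cells chose the members, no test is given, and 4 libraries would be too few for an exact sign-flip test to pass 0.05. A gene is called higher or lower here when it differed at least 2-fold the same way in all 4 libraries. By that rule 265 genes were higher (1.55%) and 213 were lower (1.24%), the rule genes included. Means ± SD of log2 ratios are over the 4 libraries, each of another line. The median over all genes outside the rule was -0.12. Without the deepest 5% of barcodes 400 genes were higher, 249 of them among the 265, and 368 were lower, 159 of them among the 213. With 1 library fewer to pass, the lower genes numbered 461 without pCORTEX:GFP. Matched depth below means that the other cells were limited to the range from the 25th to the 75th percentile of depth of the defence-state cells of the same library.

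Salicylic acid synthesis genes were higher at the first step of the pathway. ICS1 (AT1G74710), the isochorismate synthase that feeds PBS3, stood at 50.9, 465, 391 and 62.3 CPM in defence-state cells, against 3.29, 3.16, 2.66 and 2.34 CPM in the other cells, a mean log2 ratio of 4.37 ± 1.62. With every cell thinned to 2000 UMIs, an ICS1 UMI was seen in 19.8%, 35.0%, 31.6% and 17.9% of defence-state cells, against 0.842%, 0.534%, 0.662% and 0.508% of the others. SARD4 (AT5G52810), a reductase that completes pipecolic acid, had 18.0, 77.5, 93.9 and 18.1 CPM, against 5.72, 6.90, 7.94 and 4.45 CPM. In each library the levels of both genes lay above those of the other cells, and most so in pCORTEX:GFP and PET111, and both calls held at matched depth. They were 2 of the 7 genes of a list of salicylic acid and NHP synthesis genes that passed the UMI limit, out of 9 listed, and 0 of the 7 were lower. Over all genes 1.55% were higher and 1.24% lower.

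Enzymes that modify salicylic acid were not higher in every library. UGT74F2 (AT2G43820), a salicylic acid glucosyltransferase, had 43.6, 69.8, 31.3 and 128 CPM in defence-state cells, against 382, 84.0, 123 and 618 CPM in the others. DMR6 (AT5G24530), a salicylic acid hydroxylase, had 56.2, 23.6, 12.6 and 69.0 CPM, against 108, 35.9, 46.1 and 154 CPM. Both were below the other cells in all 4 libraries, by less than 2-fold in some of them. DLO1 (AT4G10500), another salicylic acid hydroxylase, had 7.35, 27.0, 20.6 and 4.70 CPM, against 12.4, 10.1, 9.04 and 18.7 CPM, above the other cells in pCORTEX:GFP and PET111 and below them elsewhere. EDS5 (AT4G39030), the transporter that moves isochorismate out of the plastid, had 58.5, 77.2, 50.0 and 48.5 CPM, against 69.4, 40.1, 31.0 and 71.5 CPM, with directions that differ between libraries. ALD1 (AT2G13810), the aminotransferase that opens pipecolic acid synthesis, was at 0.343 and 2.17 CPM in pWER:GFP and pCORTEX:GFP and at 0 elsewhere, and did not pass the limit. Over the list the median mean log2 ratio was 0.04.

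Regulators of the pathway held 7 of 24 genes that were higher and 0 that were lower, and all 24 passed the limit. Of all genes 1.55% were higher and 1.24% lower. NUDT6 (AT2G04450), a nudix hydrolase, was the highest at 111, 856, 472 and 138 CPM in defence-state cells, against 3.48, 2.75, 4.39 and 1.59 CPM in the others. CBP60g (AT5G26920), a transcription factor that switches on ICS1, had 48.8, 629, 981 and 84.0 CPM, against 4.76, 6.02, 13.8 and 4.82 CPM. PAD4 (AT3G52430), a lipase-like partner of EDS1, had 74.2, 698, 849 and 82.2 CPM, against 7.97, 8.12, 11.4 and 7.13 CPM. The mean log2 ratios of these genes were 5.17 ± 1.34, 4.30 ± 1.73 and 4.22 ± 1.73. NUDT7 (AT4G12720), a nudix hydrolase that restrains EDS1 signalling, followed at 2.65 ± 1.62. EDS1 (AT3G48090) itself had 2.25 ± 1.15, WRKY8 (AT5G46350) 2.14 ± 0.76 and SAG101 (AT5G14930), the other lipase-like partner, 1.99 ± 1.05. EDS1, PAD4 and SAG101 were thus all higher, with smaller ratios in pWER:GFP and pSCR:GFP than in the other libraries. The deep cells with WRKY46 and PUB54 alone lower these ratios in part. The log2 ratio of PAD4 was 2.61, 5.74, 5.70 and 2.85 over the whole state. Over the cells with FMO1 or PBS3 it was 3.52, 5.75, 5.75 and 4.07. EDS1 was at 32.9, 189, 244 and 42.1 CPM in defence-state cells, against 13.5, 17.7, 19.2 and 11.7 CPM in the others. SARD1 (AT1G73805), the close relative of CBP60g, stayed at low counts, 4.99, 18.6, 15.4 and 2.56 CPM, against 2.64, 3.15, 2.52 and 1.70 CPM. At matched depth 4 of the 7 were called, NUDT6, CBP60g, PAD4 and WRKY8. EDS1 had a log2 ratio of 0.83 in pWER:GFP there, SAG101 0.92 in pWER:GFP and 0.77 in pSCR:GFP, and NUDT7 0.96 and 0.99 in these libraries. The list median was 1.02. Counted per library, 7, 16, 16 and 7 of the 24 genes were at least 2-fold higher, where 2.62%, 9.98%, 9.93% and 4.31% of all genes were.

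Pathogenesis-related outputs were near 0 or not called. PR1 (AT2G14610), the usual leaf marker of the response, had 0 UMIs in all 4 libraries, in either group. PR2 (AT3G57260) had 0.381 CPM in defence-state cells of pWER:GFP and 0 in those of the other libraries. PR5 (AT1G75040) had 0.457 CPM in defence-state cells of pWER:GFP and likewise 0 in those of the other libraries. AIG1 (AT1G33960) had 18.0 CPM in defence-state cells of pCORTEX:GFP, against 0 UMIs in the others, and at most 0.467 CPM in those of the other libraries. Of the 8 genes of this list only PR3 and PR4 passed the limit, and 0 of these 2 were higher in every library. PR3 and PR4 are known as outputs of jasmonate and ethylene rather than of salicylic acid. PR4 (AT3G04720), a chitin-binding protein, came closest to a call, with 655, 2031, 1692 and 769.6 CPM in defence-state cells, against 322, 66.8, 90.6 and 392 CPM in the others. It missed the call in pSCR:GFP alone, at a log2 ratio of 0.96. PR3 (AT3G12500), a basic chitinase, had 18.0, 75.7, 52.8 and 17.9 CPM, against 24.03, 3.94, 4.53 and 27.1 CPM, and lay above the other cells only in pCORTEX:GFP and PET111.

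At the cell surface, 3 signalling genes were called higher and the receptors FLS2, PEPR1 and PEPR2 were not called. Among 15 of 17 listed receptors and kinases that passed the limit, 3 were higher and 0 lower, against 1.55% and 1.24% of all genes. FRK1 (AT2G19190), a receptor kinase induced by bacterial flagellin, had 20.6, 84.0, 104 and 26.2 CPM in defence-state cells, against 2.66, 1.77, 3.84 and 1.638 CPM. MPK11 (AT1G01560), a MAP kinase, had 17.3, 76.6, 86.0 and 14.5 CPM, against 2.61, 0.807, 1.65 and 1.98 CPM. RBOHD (AT5G47910), the NADPH oxidase of the immune oxidative burst, had 25.9, 72.3, 129 and 32.2 CPM, against 5.66, 5.28, 9.21 and 6.34 CPM. The flagellin receptor FLS2 (AT5G46330) was at 0.533, 2.17, 5.61 and 1.42 CPM, against 0.570, 1.35, 1.94 and 0.639 CPM. The 5 CPM added shrinks ratios at such low levels, and the log2 ratio of FLS2 was at most 0.61, in PET111. PEPR2 (AT1G17750) was low too, at 1.60, 2.17, 1.40 and 1.57 CPM, against 3.88, 2.12, 2.79 and 4.26 CPM. PEPR1 (AT1G73080), a receptor of danger peptides, was at 8.72, 12.4, 15.4 and 17.9 CPM, against 32.5, 13.9, 14.6 and 47.0 CPM, at least 2-fold below the other cells in pWER:GFP and pSCR:GFP. The co-receptor BAK1 (AT4G33430) had log2 ratios of -0.26 and -0.21 in these libraries and of 0.86 and 1.13 in pCORTEX:GFP and PET111. The calls of FRK1, MPK11 and RBOHD held at matched depth, and the list median was 0.61.

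Pattern-triggered response genes, which are known to be induced soon after an elicitor, held 6 higher and 0 lower among 22 of 23 that passed the limit. The shares over all genes were 1.55% higher and 1.24% lower. NHL10 (AT2G35980), a marker of the early response, reached 165, 593, 535 and 166 CPM in defence-state cells, against 17.8, 6.47, 9.78 and 11.2 CPM. CML37 (AT5G42380), a calmodulin-like calcium sensor, had 1343, 445, 344 and 1211 CPM, against 312, 28.9, 19.6 and 206 CPM. The syntaxin SYP122 (AT3G52400), which serves secretion during defence, had a mean log2 ratio of 2.26 ± 1.09. CYP81F2 (AT5G57220), an indole glucosinolate hydroxylase, had 2.25 ± 0.81. PROPEP3 (AT5G64905), the precursor of a danger peptide, and the transcription factor WRKY53 (AT4G23810) were the most even, at 1.94 ± 0.23 and 1.41 ± 0.29. In this list 19 of 22 genes were above the other cells in every library, against 10.8% of all genes, and the median was 1.26. At matched depth 2 of the 6 calls held, NHL10 and CML37. PROPEP3 was then at -0.36 in PET111, and WRKY53 at -0.15 in pCORTEX:GFP and -0.55 in PET111.

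Of the camalexin and indole glucosinolate genes, 8 were higher and 0 lower among 20 of 21 that passed the limit. Among all genes 1.55% were higher and 1.24% lower. But 2 of these 8 calls held at matched depth, CYP71A12 and FOX1. CYP71A12 (AT2G30750), a cytochrome P450 of indole-3-acetonitrile formation, was at 975, 2856, 3946 and 1338 CPM in defence-state cells, against 195, 69.1, 195 and 165 CPM in the others. FOX1 (AT1G26380), an oxidase of the indole cyanogenic branch, had 46.8, 199, 339.7 and 68.7 CPM, against 11.4, 4.19, 19.2 and 8.09 CPM. GSTF6 (AT1G02930), a glutathione transferase of camalexin synthesis, had 663, 1335, 2394 and 873 CPM, against 185, 77.0, 299 and 158 CPM. CYP79B2 (AT4G39950), which turns tryptophan into its oxime at the head of the pathway, had 180.0, 339, 799.5 and 276 CPM, against 56.5, 34.3, 108 and 60.5 CPM. The mean log2 ratios of these 4 genes were 3.71 ± 1.33, 3.11 ± 1.27, 2.81 ± 0.94 and 2.41 ± 0.70. The methyltransferase IGMT2 (AT1G21120) had 2.12 ± 0.48 and the P450 CYP71B6 (AT2G24180) 2.09 ± 0.78. TSA1 (AT3G54640), the tryptophan synthase alpha subunit, had 1.53 ± 0.26, and MYB51 (AT1G18570), a transcription factor of indole glucosinolates, 1.43 ± 0.17. The 6 calls that were lost fell short in PET111, where the ratios at matched depth were 0.73 for GSTF6, 0.47 for CYP79B2, 0.23 for IGMT2, 0.85 for CYP71B6, 0.38 for TSA1 and -0.37 for MYB51. PAD3 (AT3G26830), the enzyme of the last camalexin step, was low, at 24.7, 8.99, 8.41 and 29.0 CPM, against 9.97, 1.09, 5.18 and 12.6 CPM, and was not called. CYP71A12 and CYP71A13, GSTF6 and AT1G02920, and IGMT2 and IGMT1 are near copies of each other, and how reads were split between them is not given in the sources used here, so these levels are uncertain.

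**Figure D3:**
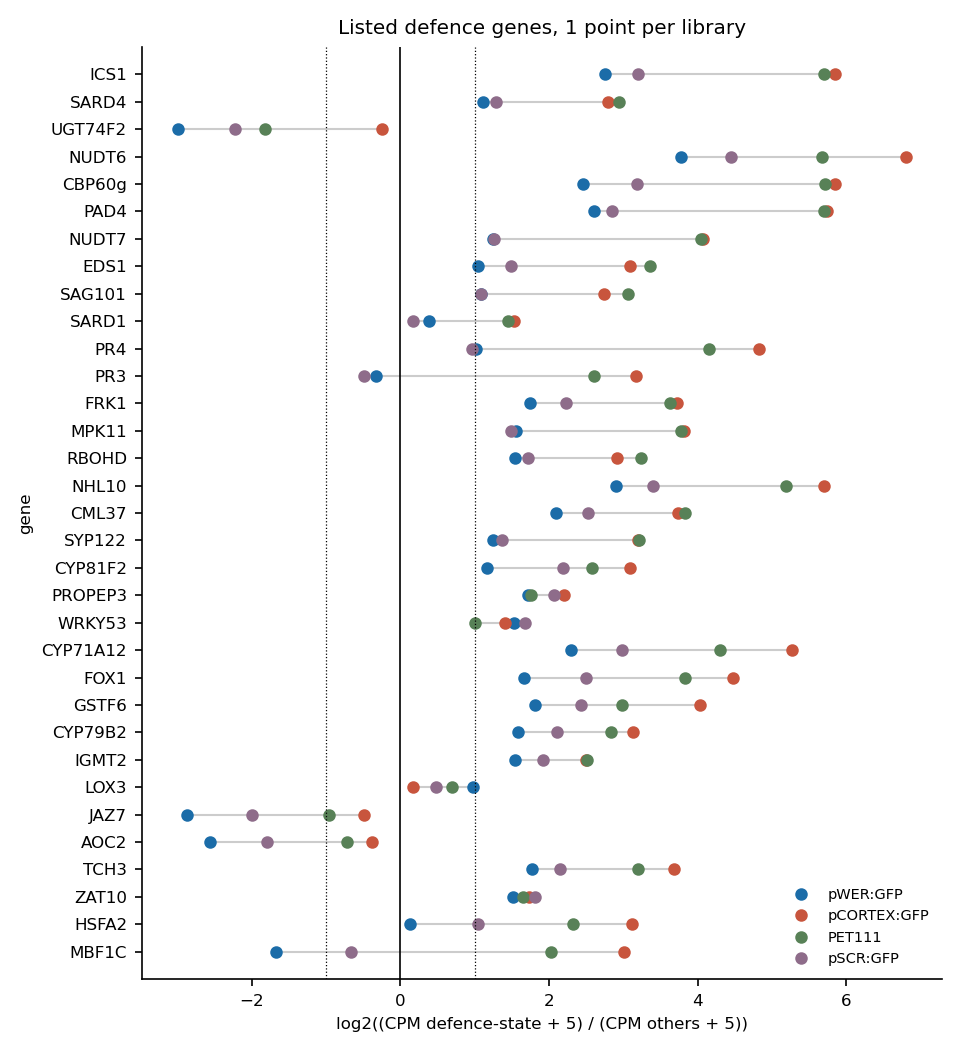
Log2 ratio of defence-state over other barcodes (x axis, after adding 5 CPM to both) for listed genes (y axis), with 1 point per library and dotted lines at 2-fold. The points of ICS1, NUDT6, CBP60g and PAD4 lie to the right of 2-fold in all 4 libraries, with pCORTEX:GFP and PET111 farthest right, while JAZ7, AOC2 and UGT74F2 lie left of 0 and MBF1C crosses it.

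Jasmonate genes were not called in either direction. Of 17 jasmonate and wounding genes that passed the limit, out of 22 listed, 0 were higher and 0 lower, and the median was -0.31. Over all genes 1.55% were called higher and 1.24% lower. JAZ7 (AT2G34600), a repressor that jasmonate induces, was at 6.70, 0.930, 1.40 and 19.8 CPM in defence-state cells, against 80.6, 3.29, 7.46 and 93.6 CPM in the others. AOC2 (AT3G25770), an allene oxide cyclase, was at 1.637, 6.51, 1.40 and 8.25 CPM, against 34.1, 9.99, 5.49 and 40.9 CPM. Both were below the other cells in every library. With the 5 CPM added, which shrinks ratios of low levels, they reached 2-fold in pWER:GFP and pSCR:GFP.

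Among 13 of 14 ethylene and early stress genes that passed the limit, 2 were higher and 0 lower, against 1.55% and 1.24% of all genes. TCH3 (AT2G41100), a calmodulin-like gene that responds to touch, had 637, 725, 734 and 628 CPM in defence-state cells, against 183, 52.0, 75.5 and 137 CPM. ZAT10 (AT1G27730), a zinc finger repressor, had 417, 143, 156 and 389 CPM, against 142, 39.6, 46.1 and 107 CPM. Their mean log2 ratios were 2.70 ± 0.89 and 1.68 ± 0.12. The call of TCH3 held at matched depth, and ZAT10 was then at -0.48 in pCORTEX:GFP and -0.41 in PET111. Heat shock genes divided the libraries instead. Of 12 listed, 10 passed the limit, and 0 were higher or lower in every library. Summed over the list they stood at 79.3, 1806, 456 and 180.3 CPM in defence-state cells, against 205, 202, 78.3 and 197 CPM in the others. They were at least 2-fold higher in 0, 8, 7 and 1 of the 10 genes.

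At matched depth, the ratios of ICS1 and NUDT6 were about the same, while several stress genes were no longer above the other cells in every library. Over all genes 156 were higher, 148 of them among the 265, and 483 were lower. ICS1 had a mean log2 ratio of 4.48 and NUDT6 5.19 in that comparison, while PROPEP3 had 0.70, WRKY53 0.45, MYB51 0.50 and ZAT10 0.52. The list medians were 0.65 for pattern-triggered genes, 0.59 for camalexin genes and -0.41 for heat shock genes, against medians of 1.26, 1.27 and 0.71 with all other cells, each of these medians being over the same genes.

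Within the state, many levels followed the number of rule genes a cell carried, which is part of the rule, so these values are a description. ICS1 was higher the more rule genes were present, with 2, 3 and 4 of them at 7.63, 60.2 and 371 CPM in pWER:GFP and at 6.45, 90.3 and 404 CPM in pSCR:GFP. It was at 63.8, 357 and 691 CPM in pCORTEX:GFP and at 77.3, 134 and 847 CPM in PET111. CBP60g behaved differently in the pairs of libraries. It stood at 549, 654 and 649 CPM in pCORTEX:GFP and at 883, 930.1 and 1095 CPM in PET111, with little difference between 2 and 4 rule genes. In pWER:GFP it was at 22.2, 54.9 and 244 CPM and in pSCR:GFP at 26.0, 149 and 414 CPM. CYP71A12 had the same contrast, at 2397, 2709 and 3126 CPM in pCORTEX:GFP and at 482, 1414 and 4028 CPM in pWER:GFP. CML37 did not follow the number in pWER:GFP, at 1283, 1569 and 1408 CPM. Depth ran against the number in pWER:GFP and pSCR:GFP, where cells with 2 rule genes had medians of 27141 and 33819 UMIs, against 16306.5 and 15955 UMIs with all 4.

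**Figure D4:**
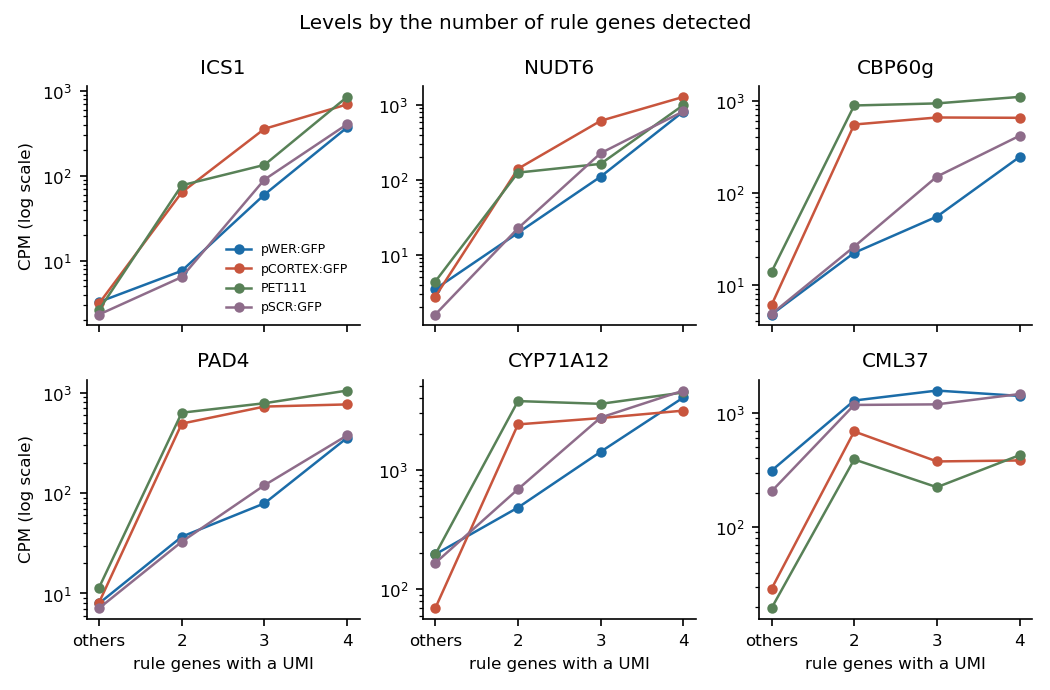
Level (CPM, y axis, log scale) of 6 genes in the other barcodes and in defence-state barcodes with 2, 3 or 4 rule genes (x axis), with 1 line per library. ICS1 and NUDT6 climb in all libraries, whereas CBP60g, PAD4 and CYP71A12 differ by less than 2-fold between 2 and 4 rule genes in pCORTEX:GFP and PET111 and climb in pWER:GFP and pSCR:GFP.

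The cells with WRKY46 and PUB54 alone show what lies at the low end in pWER:GFP and pSCR:GFP. They had 4.80 and 4.28 CPM of ICS1, against 3.29 and 2.34 CPM in cells outside the state. NUDT6 was at 9.91 and 13.6 CPM in them, against 3.48 and 1.59 CPM, and PAD4 at 32.5 and 31.96 CPM, against 7.97 and 7.13 CPM. CBP60g was at 18.1 and 22.4 CPM, against 4.76 and 4.82 CPM. ICS1 was thus close to the level of the other cells in these 152 and 51 cells, while NUDT6, PAD4 and CBP60g were above it and far below the defence-state cells with FMO1 or PBS3, which had 100.2 and 227 CPM of CBP60g. Their CML37 was high, at 1262 and 1208 CPM, against 312 and 206 CPM outside the state. Markers of dividing cells summed to 219.9 and 144 CPM in them, over a list of 8 genes that all passed the limit, against 90.6 and 61.7 CPM outside the state, and the part of cell division in the result was not tested. In the defence-state cells with FMO1 or PBS3 these markers summed to 81.1 and 20.8 CPM. Over all defence-state cells their sum was 168, 16.7, 40.2 and 107 CPM, and CYCA1-1 was at 0 in pCORTEX:GFP and CYCB1-1 at 0 in PET111.

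Counted only over defence-state cells with FMO1 or PBS3, a comparison added after the data were seen, 506 genes were higher and 147 lower. Of the 265 higher genes 253 were again higher. The mean log2 ratio of ICS1 was then 5.12 and that of NUDT6 5.93.

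On other genes part of the state gathered in 1 leading cluster per library. Defence-state cells made up 96.5%, 59.8%, 82.1% and 22.0% of these clusters. Each library was clustered on 2000 variable genes without the 4 rule genes and the reporter. In pWER:GFP 1 cluster of 141 barcodes was almost pure, with 136 defence-state cells and 5 others, and it held 32.5% of the state. In pCORTEX:GFP the leading cluster held 85.0% of the state, 216 cells beside 145 others. The leading cluster of PET111 held 59.6%, 115 cells beside 25 others, and that of pSCR:GFP 56.4%, 79 cells beside 280 others. NUDT6 was among the 10 genes of highest fold in all 4 of these clusters, and ICS1 among those of PET111. Clusters are built from the same transcripts, so these genes are a description and no test.

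The other cells inside these clusters carried part of the programme, with ICS1 far lower than in the defence-state cells there. In pCORTEX:GFP the defence-state cells of the leading cluster had 577 CPM of ICS1 and 1054 CPM of NUDT6, and the 145 others of that cluster 1.31 and 16.3 CPM. SARD4 stood at 104 CPM in the defence-state cells and 94.0 CPM in those others. For CBP60g the levels were 805 CPM in the defence-state cells and 354 CPM in those others, and for PAD4 885 and 227 CPM. CYP71A12 stood at 3711 CPM in the defence-state cells and 2177 CPM in those others, and NUDT7 at 1521 and 1207 CPM. In cells outside the cluster and the state CBP60g was at 4.20 CPM and CYP71A12 at 58.1 CPM. The 280 others of the pSCR:GFP cluster had 64.6 CPM of CBP60g and 2056 CPM of CYP71A12, and the 79 defence-state cells there 389 and 5075 CPM. ICS1 in that cluster was at 311 CPM in defence-state cells and 4.61 CPM in the others. In PET111 ICS1 was at 753 CPM in the 115 defence-state cells and 14.8 CPM in the 25 others of the cluster, and NUDT6 at 879.6 and 93.5 CPM. PBS3 was at 1448 and 246 CPM there, but it is a rule gene, and the rule itself raises that difference. In pWER:GFP ICS1 was at 495 CPM in the 136 defence-state cells and 30.6 CPM in the 5 others.

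Markers of other root cell classes were checked in the state. Endodermis markers, which build the Casparian strip, were lower for all 8 genes of the list in every library, where 8.41%, 14.2%, 14.2% and 8.03% of all genes were at least 2-fold lower in the single libraries. CASP1 (AT2G36100) had 8.56, 16.7, 108 and 32.02 CPM in defence-state cells, against 316, 1064, 861 and 386 CPM in the others. Summed, the 8 markers had a mean log2 ratio of -4.04 ± 1.06. Root hair markers summed to -2.63 ± 1.21, with 3 of 7 genes lower, among them RHD6 (AT1G66470), a regulator of hair fate, and 0 of these 3 calls held at matched depth. All 8 endodermis calls held. Xylem markers summed to -3.19 ± 1.95, with 0 of 7 lower in every library, since PET111 had 79.0 CPM in defence-state cells, against 100.7 CPM in the others. The others of matched depth in PET111 had 788 CPM, and the xylem sum over the libraries was then -4.97 ± 1.24.

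Root cap markers differed in direction between libraries, between kinds of defence-state cells and with the comparison. Their summed level was 1639 and 1032 CPM in defence-state cells of pCORTEX:GFP and PET111, against 246 and 204 CPM in the others. In pWER:GFP and pSCR:GFP it was 225 and 207 CPM, against 399.8 and 517 CPM. The share of cells with at least 2 different root cap markers after thinning was higher in the state in all libraries, at 25.3%, 49.6%, 34.7% and 20.0%, against 11.2%, 17.5%, 19.5% and 14.9% of the others, and the counting intervals overlapped only in pSCR:GFP. Among the others of matched depth it was 13.1%, 34.7%, 40.9% and 13.6%, above the state in PET111. BRN1 (AT1G33280) and BRN2 (AT4G10350), NAC transcription factors of root cap maturation, had 86.6, 423, 369.6 and 117 CPM and 52.3, 398, 246 and 46.4 CPM in defence-state cells. The other cells had 44.7, 40.1, 36.4 and 55.5 CPM of BRN1 and 15.97, 22.4, 17.3 and 28.0 CPM of BRN2. Of the 11 root cap genes that passed the limit, out of 12, 0 were higher and 0 lower in all libraries. The list median was -0.11. Counted per library, 1, 7, 7 and 1 of the 11 genes were at least 2-fold higher. At least 2-fold lower were 4, 1, 1 and 5 of them. BRN1 and BRN2 were at least 2-fold higher in 3 of the 4 libraries. The log2 ratio of all 12 genes summed ran from -1.30 in pSCR:GFP to 2.71 in pCORTEX:GFP, and LZY2 was at 0 in the defence-state cells of pSCR:GFP. Other cells of matched depth had more root cap transcripts than the state in every library, with 1858 CPM in pCORTEX:GFP and 1760.4 CPM in PET111. The log2 ratios of the sum against them were -0.90, -0.18, -0.77 and -1.07. In the leading clusters the root cap sum was 1226, 1200.2, 1088 and 778 CPM, against 367, 249, 208 and 492 CPM in the rest of each library. The part of root cap cells in the defence gene levels was not tested.

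**Figure D5:**
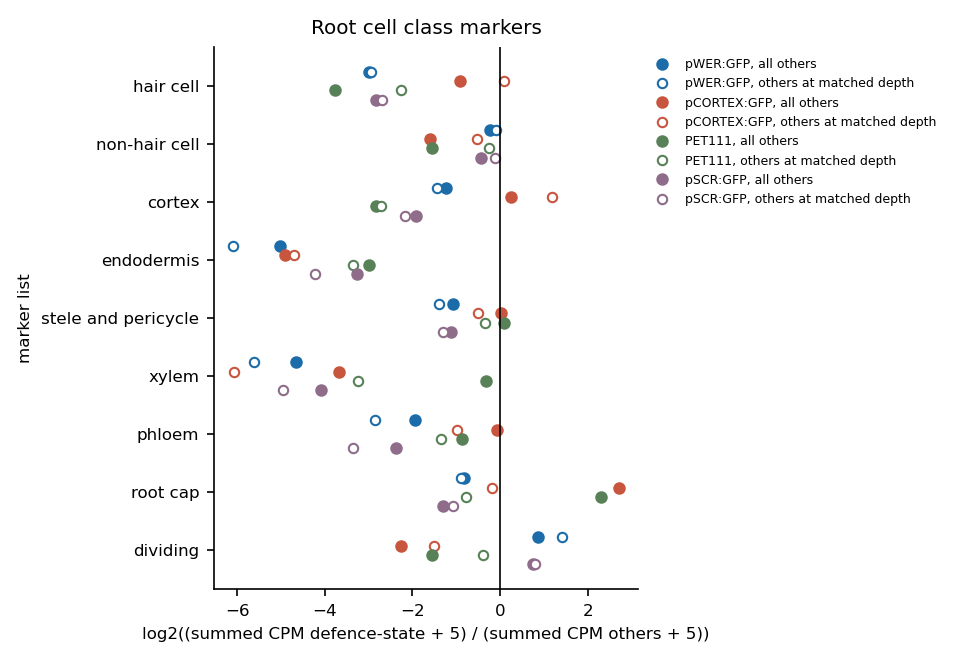
Log2 ratio of summed marker levels (x axis, after adding 5 CPM to both) of defence-state barcodes over all others (filled points) and over others of matched depth (open points) for 9 root cell classes (y axis), by library. Endodermis lies left of -2 in every library, and the root cap points of pCORTEX:GFP and PET111 lie right of 2 against all others and left of 0 at matched depth.

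The reporters, which the rule did not use, were seen in part of the state. A GFP UMI was present in 40.3% (35.6% to 45.2%) of defence-state cells of pWER:GFP, against 23.2% (22.1% to 24.3%) of the others, and after thinning in 7.88% against 7.29%. Of the 169 defence-state cells with GFP, 111 carried WRKY46 and PUB54 alone, and GFP was seen in 73.0% of that kind and 21.7% of those with FMO1 or PBS3. The kinds had median depths of 80241.5 and 16012 UMIs. In pCORTEX:GFP the share was 1.97% in the state, against 6.78% in the others. YFP was seen in 0 of 193 defence-state cells of PET111 (0% to 1.89%), against 3.64% of the others. Median depths there were 9057 UMIs in the state and 16422 UMIs in the others. In pSCR:GFP the share with GFP was 5.71% (2.50% to 10.9%), against 3.23%, a difference that was within the counting interval. After thinning it was 0% there, against 0.688% of the others. Of the 8 defence-state cells of pSCR:GFP with GFP, 7 carried WRKY46 and PUB54 alone.

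Outside all lists, the 15 genes that were highest in their lowest library included several with no name. AATP1 (AT5G40010), an AAA-type ATPase, was the highest by its lowest library, at 196, 186, 151 and 138 CPM in defence-state cells, against 5.05, 0.458, 0.187 and 2.15 CPM in the others. Its neighbour AT5G40000, annotated as a P-loop hydrolase, had 55.6, 33.8, 44.9 and 112 CPM, against 3.90, 0.166, 0.434 and 3.17 CPM. Both were as high in pWER:GFP and pSCR:GFP as in the other libraries. The mean log2 ratios were 4.67 ± 0.41 for AATP1 and 3.18 ± 0.47 for AT5G40000.

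A pair of annotated disease resistance genes of the TIR class was among them. AT4G11340, a TIR-NBS-LRR protein, had 46.2, 379, 235 and 48.8 CPM in defence-state cells, against 0.422, 0.0746, 0.0601 and 0.305 CPM. AT1G66090, a TIR-NBS protein, had 65.5, 432, 410.3 and 71.0 CPM, against 4.81, 2.48, 3.43 and 2.86 CPM. Peroxidases and wall-associated proteins followed. PER4 (AT1G14540) had 249, 2296, 2434 and 201 CPM, against 15.3, 28.7, 58.2 and 14.0 CPM, and its neighbour and relative AT1G14550 a mean log2 ratio of 4.73 ± 1.495. The germin-like GLP9 (AT4G14630) had 4.83 ± 1.54. The flotillin FLOT1 (AT5G25250) and its adjacent relative AT5G25260 had 4.07 ± 1.23 and 5.24 ± 1.71, and reads shared within either of these pairs of relatives would make their levels uncertain. The phosphoglycerate mutase family gave AT3G60415 at 5.12 ± 1.61 and AT1G09932 at 4.69 ± 1.86. The remaining genes of the 15 were AT1G65481 and AT5G44567, both uncharacterized, the PLAC8 gene AT1G58320 and the EF-hand gene AT3G47480, at 5.02 ± 1.49, 4.68 ± 1.59, 4.24 ± 1.01 and 4.38 ± 1.66.

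The 10 genes outside the lists that were lowest in their highest library had ratios of -2.41 to -3.95. AT1G30750 was at 2.17, 5.89, 14.95 and 2.99 CPM in defence-state cells, against 67.5, 321, 304 and 93.0 CPM. Dirigent-like proteins, the family that patterns lignin, made up 4 of them, AT4G13580, AT3G55230, AT2G39430 and AT3G24020. The peroxidase AT5G66390 (-3.79 ± 0.45) and the uclacyanin UCC1 (-3.10 ± 1.01) were also there, with AT1G71740, AT2G40113 and the kinase AT1G61590.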

How the data were processed

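Per the labels, root-tip protoplasts of 4 reporter lines went into 10x Genomics 3′ libraries, and the submitters' processing notes name Cell Ranger 7.1.0 and Seurat. The deposited values are counts (UMIs per gene and barcode), with no normalization by the authors seen in them. Genome build, annotation and cell filter were not given in the sources used here. Each table has 32834 gene rows, and RefSeq matched 32548 of them for symbols and products.

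The members and gene lists were chosen with earlier results of these data known. UMIs were summed per library and group and scaled to CPM. Genes with at least 100 UMIs in every library entered, a pseudocount of 5 CPM was added, and a gene was called when it differed at least 2-fold the same way in all 4 libraries. Intervals are exact 95% (Clopper-Pearson for shares). Totals per library ran from 160953229 to 306361336 UMIs. Clusters were made with scanpy 1.11.5 and igraph 0.11.9 (Leiden, resolution 1, 30 principal components, 15 neighbours). The calling step was tested on simulated data. Alternatives changed the barcode and member limits, depth, scaling, pseudocount, gene filter and cluster resolution and left out libraries.

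The text names the rule genes, per list up to 4 genes with the highest and 2 with the lowest ratio, ICS1, PR1 and SARD1, the 15 highest and 10 lowest genes outside the lists, and the reporters. Other genes were chosen after their values were seen. Numbers were computed with Python 3.11.15, numpy 2.4.6, scipy 1.17.1 and pandas 2.3.3.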

Additional observations from a re-analysis of the deposited data

Results flagged for a closer look

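Barcodes outside the depth and organelle limits were not used, and some of them met the gene rule. Among barcodes under 2000 UMIs these were 0.421% of 2377 in pWER:GFP, 0.226% of 2650 in pCORTEX:GFP, 0.189% of 2115 in pSCR:GFP and 0.203% of 3441 in PET111. Among barcodes with over 10% of organelle UMIs these were 0.465% of 1076 in pWER:GFP, 0.654% of 1529 in pCORTEX:GFP, 0.252% of 1589 in pSCR:GFP and 2.30% of 2788 in PET111. The PET111 value came from 64 barcodes. All counts were above 3, the limit that a count of 0 allows, and nothing else about these barcodes was examined.

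Several listed genes went opposite ways in the lines, at least 2-fold lower in defence-state cells of 1 library and at least 2-fold higher in those of another. With 1 library per line the difference was not tested. Heat shock genes were lower in pWER:GFP and higher in pCORTEX:GFP, with log2 ratios of -1.16 and 2.76 for HSP101, -1.68 and 3.01 for MBF1C, -1.33 and 1.90 for HSP70-4, and -1.39 and 3.49 for HSP17.6A. Enzymes of root cap cell death and separation were lower in pSCR:GFP and higher in pCORTEX:GFP, with -2.82 and 1.35 for BFN1, -3.73 and 3.49 for RNS3, -2.09 and 1.203 for PASPA3, and -2.28 and 2.08 for SCPL48. The polygalacturonase RCPG had -3.78 in pWER:GFP and 1.93 in PET111. DLO1, a salicylic acid hydroxylase, had -1.29 in pSCR:GFP and 1.08 in pCORTEX:GFP, and the transporter ABCG40 had -1.75 in pSCR:GFP and 2.38 in pCORTEX:GFP. WRKY30 had -1.47 in PET111 and 1.51 in pSCR:GFP. PCNA1, a replication gene, had -2.09 in PET111 and 1.25 in pSCR:GFP. The level of PCNA1 in pSCR:GFP was 69.4 CPM in cells with WRKY46 and PUB54 alone. It was 16.1 CPM in those with FMO1 or PBS3, against 19.6 CPM in the other cells.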

How the results depend on the processing

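No paired analysis was possible because each line has 1 library, so replicate numbers pair no samples. Among 137 single genes under 18 alternatives, 2278 of 2466 values stayed within the spread over libraries and 188 moved beyond it. A changed gene filter leaves the value of a single gene as it is, so these values could not move. None of the 1224 values of the 68 called genes changed sign. For the pseudocount, the gene filter and left-out libraries this was fixed in advance, since a called gene has the same sign in all 4 libraries. All these values are means over libraries: at matched depth 17 of the 68 genes lost the call in at least 1 library, and 6 changed sign there. Shares of the state were 8.64% (pWER:GFP) and 2.73% (pSCR:GFP) with 4000 UMIs, 2.94%, 2.49%, 3.87% and 0.981% with 3 of 4 rule genes, 5.28% (pWER:GFP) and 1.60% (pSCR:GFP) with 400 CPM, and 2.69%, 2.48%, 4.01% and 0.937% after thinning. The leading cluster held 47.3%, 91.3% and 90.7% of the state in pWER:GFP, pCORTEX:GFP and PET111 at resolution 0.5, and 40.1%, 61.4% and 33.2% at resolution 2. Defence-state cells made up 34.7%, 47.8%, 44.9% and 22.4% of the leading clusters at resolution 0.5, and 77.1%, 96.9%, 98.5% and 43.3% at resolution 2. Genes higher numbered 586 with 3 of 4 rule genes, 400 with 400 CPM of them, 156 at matched depth, 461 with means of per-barcode CPM, 138 with 20 CPM added, and 400 without the deepest 5%. Genes lower numbered 365 with 400 CPM, 483 at matched depth, 757 with per-barcode means, 137 with median-of-ratios scaling, 502 with 1 CPM and 72 with 20 CPM added, and 368 without the deepest 5%. Leaving out 1 library gave 272 to 329 higher and 239 to 461 lower genes, the last without pCORTEX:GFP. Chosen after seeing the data, cells with FMO1 or PBS3 gave 506 higher genes, pCORTEX:GFP and PET111 alone 1505 higher and 1726 lower, and pWER:GFP and pSCR:GFP alone 400 higher and 1140 lower. List medians, each over the genes that passed under the alternative, moved as follows. Pattern-triggered genes had 0.60 at matched depth and 1.78 in pCORTEX:GFP and PET111 alone. Camalexin genes had 0.77 at matched depth, 1.04 with 20 CPM, 1.53 with 500 UMIs per gene and 1.63 in pCORTEX:GFP and PET111 alone. Jasmonate genes had -0.67 at matched depth, -0.53 with per-barcode means, -0.51 with 500 UMIs, -0.48 without the deepest 5%, and -0.44 to -0.22 leaving out 1 library. Early stress genes had 0.25 at matched depth and 0.50 with per-barcode means. Heat shock genes had 2.34 in pCORTEX:GFP and PET111 alone, and salicylic acid synthesis genes -0.89 in pWER:GFP and pSCR:GFP alone. The cause was not tested.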

Other observations

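Part of the genes higher in the defence state lay next to each other on the chromosome, by the gene order of the RefSeq annotation. Of 264 higher genes with a place in that order, 48 (18.18%) had a neighbour that was also higher, in 26 adjacent pairs, and 9.85% of all their neighbours were higher, against 1.55% of all genes. Of 213 lower genes, 11 (5.16%) had a neighbour that was also lower, in 6 pairs. Of all neighbours of lower genes 2.82% were lower, against 1.25% of all genes with a place in that order. The pairs of higher genes included PER4 with AT1G14550, FLOT1 with AT5G25260, AATP1 with AT5G40000, GSTF6 with AT1G02920 and FOX1 with AT1G26390. Many of the named pairs are relatives of each other, and reads shared between relatives or overlapping genes would raise these counts. That part was not tested, and this comparison was chosen after the data were seen.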
